A study of Arabidopsis thaliana with 16 samples.

Results

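The direct comparison of 2 cellulose synthesis inhibitors, TA and IXB, is described here. Its members are the 4 arrays of TA-treated and the 4 arrays of IXB-treated suspension cells. Every value was first expressed as a difference from the methanol controls of its own set of columns. With the 4 methanol arrays these make up all 12 arrays of the study, which fill 16 columns because both sets list the same methanol arrays. All groups were Arabidopsis thaliana cells of ecotype Landsberg erecta, grown as a dark suspension culture with the synthetic auxin 2,4-D in the medium. Treatment began on day 3 after sub-culture and lasted 6 h. TA cultures received 2 µM TA, IXB cultures 100 nM IXB, and controls methanol alone, and the volume of methanol was 20 µL in every culture. Each replicate pooled 2 flasks of 100 mL. Nothing in the labels says that replicates go back to different parent cultures, and what a p-value weighs here is only the scatter among these samples, which may be technical. The doses of the compounds differ, so the compound and its dose cannot be told apart in any difference given below.

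By general knowledge, which the labels do not give, TA stands for thaxtomin A, a nitrated cyclic dipeptide made by the Streptomyces that cause potato scab, and IXB for isoxaben, a synthetic benzamide herbicide. Cellulose is spun by complexes of cellulose synthase in the plasma membrane, and both compounds are known to lower the amount of these complexes there. Plant cells answer a loss of cellulose with enzymes that rework the remaining xyloglucan and pectin, with peroxidases and lignin-related enzymes, and with calcium and defence signalling.

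Transcripts were measured on Affymetrix ATH1 arrays as log2 values. The IXB arrays lay between methanol and TA on the first principal component of the centred values, which held 38.4% of the variance. Methanol arrays scored from -22.0 to -18.4, IXB arrays from -2.74 to 4.06 and TA arrays from 16.3 to 22.6. On the second component (13.2%), IXB replicate 1 stood apart at 21.9, with IXB replicate 2 next at 11.8 and the other IXB arrays at -4.30 and 1.46. Column medians were 4.76 to 4.85 log2 for the TA set, and the IXB set was brighter, at 5.20 to 5.30. The methanol arrays, present in both sets, gave a local slope of TA-set on IXB-set values of 0.82 at an IXB-set level of 3 log2, 0.91 at 4 and between 1.02 and 1.04 from 5 upwards. Differences of dim transcripts are therefore on a wider scale in the IXB set. Proliferation markers were bright, with 4 of 11 measured at 6.75 to 8.65 log2 on methanol arrays in the TA set, and the 2 of 9 measured xylem markers were dim (2.79 and 4.83). The 4 of 7 measured root hair markers ran from 2.79 to 6.71, and of 13 green tissue genes 2 were measured, LHCB4.2 at 5.12 and RCA, an activator of Rubisco, at 9.13. Of these 12 markers only AUR2, described below, was called as different between the compounds. All 4 proliferation markers were lower with TA than with IXB, with a median difference of -0.26 log2. In these bulk samples fewer cells of one kind and less RNA per cell cannot be told apart.

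The largest differences between TA and IXB were in transcripts that were higher with TA. The limma fit covered 22746 probe sets and, at an adjusted p under 0.05, placed TA above IXB in 618 (2.72%) and below it in 467 (2.05%). At an unadjusted p of limma under 0.05 the counts were 2191 above and 2268 below. Among the 618, the median difference between the compounds was 0.44 log2, and the median distance from methanol was 0.61 with TA and 0.16 with IXB. Among the 467 it was -0.37, with medians of -0.31 for TA and 0.07 for IXB against methanol. A difference of at least 1 log2 was called for 41 probe sets in favour of TA and for 0 in favour of IXB, and 0 of the latter size had an unadjusted p of limma under 0.05 either. In those 41 the mean of both compounds lay above methanol, with medians of 2.13 log2 for TA and 0.89 for IXB. All 4 TA arrays lay above all 4 IXB arrays in 572 of the 618, and below them in 414 of the 467. Over all probe sets these separations were seen in 6.08% and 5.5%. The median standard error of a difference was 0.09 log2, and the number of arrays limits this precision.

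**Figure D1:**
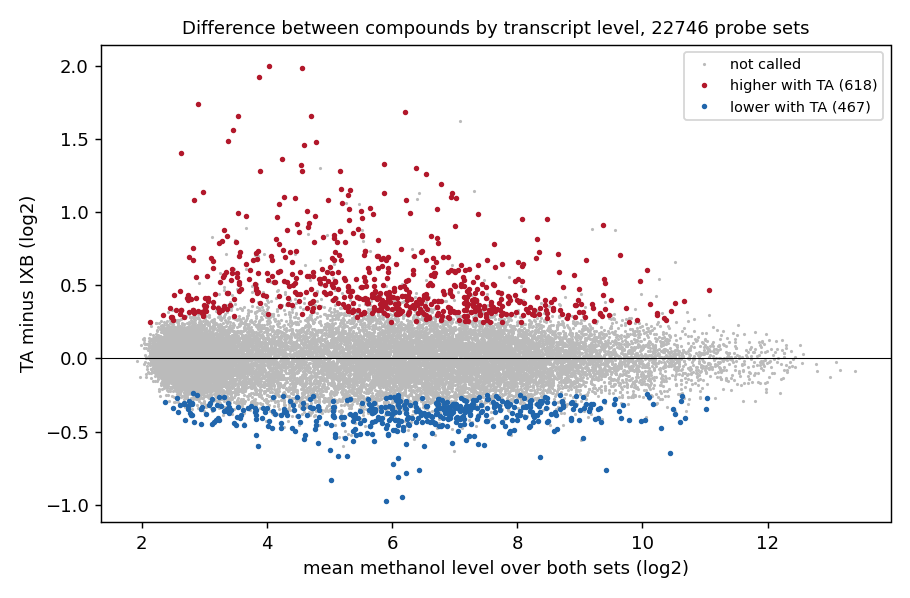
Each point is 1 of 22746 probe sets. The horizontal axis is its mean log2 level on methanol arrays over both sets, the vertical axis its TA minus IXB difference in log2, and red and blue mark the 618 probe sets called higher and the 467 called lower with TA. Red points reach 2.00 log2, mostly at low and middle levels, while blue points end at -0.97.

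These counts rested on which arrays were used. Without IXB replicate 4 they were 329 higher and 159 lower, and without IXB replicate 2 336 and 150. They were 397 and 218 without TA replicate 3. The lower count alone was 224 without IXB replicate 1, 275 without TA replicate 2 and 295 without TA replicate 1. Of the 1085 calls, 611 belong to probe sets of exactly 1 gene, and the genes named below come from these. A gene counts as measured below only where a probe set is named for it alone, so other list genes may be on the array unidentified here.

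Among single-gene probe sets whose TA and IXB arrays do not overlap, the 2 largest differences were in AT2G34930 and AT1G20070. A called probe set outside this choice reached 2.00 log2. AT2G34930 encodes a leucine-rich repeat protein. AT2G34930 stood at 2.87, 2.63, 2.90 and 2.97 log2 above methanol on the TA arrays and at 0.55, 0.90, 1.12 and 0.86 on the IXB arrays. The lowest TA array was thus 1.51 log2 above the highest IXB array, and the difference of the means was 1.99 (SE 0.12, limma adjusted p = 2.41e-07). This gene was 7.18-fold above methanol with TA and 1.81-fold with IXB. The same methanol arrays put this gene at 3.95 log2 among the TA columns and at 5.17 among the IXB columns, so the summaries of this probe set differed between the sets by more than the column medians did. AT1G20070 stood at 2.75, 2.86, 2.81 and 2.71 with TA and at 1.01, 1.32, 0.44 and 0.65 with IXB, a difference of 1.93 (SE 0.14, adjusted p = 1.70e-06). Its TA arrays spanned a narrow range and its IXB arrays a wide one, without overlap.

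AT2G32190 and AT5G38700 stood above methanol with both compounds. AT2G32190 was at 3.55, 3.55, 3.22 and 3.33 with TA and at 1.77, 1.71, 1.98 and 1.21 with IXB (difference 1.74, SE 0.14, adjusted p = 2.86e-06). It is a dim transcript, at 2.77 log2 with methanol in the TA set. The narrower scale of the TA set holds only at such low levels, and with TA this gene rose by 3.41 log2, beyond them. AT5G38700 was at 2.53, 2.65, 2.35 and 2.45 with TA and at 1.08, 1.22, 1.39 and 1.15 with IXB (difference 1.29, SE 0.09, adjusted p = 4.59e-07). In both genes every array of either compound lay above every methanol array.

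Tetraspanins are membrane proteins that organise domains of the plasma membrane and of vesicles. TET8 stood at 2.23, 2.05, 2.04 and 1.90 with TA and at 1.11, 0.68, 1.12 and 0.94 with IXB, which made it 2.14-fold higher with TA (difference 1.10 log2, SE 0.10, adjusted p = 6.99e-06). AT3G60420 was 2.22-fold higher with TA (2.00 ± 0.20 log2 against 0.85 ± 0.26, SD, n = 4). The dehydrin AT4G38410, of a family of proteins made when cells lose water, was higher by 1.14 log2 (1.58 ± 0.29 against 0.45 ± 0.10, SD, n = 4). All 3 genes were picked among those whose TA and IXB arrays do not overlap, and the gaps were 0.78, 0.64 and 0.64 log2.

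**Figure D2:**
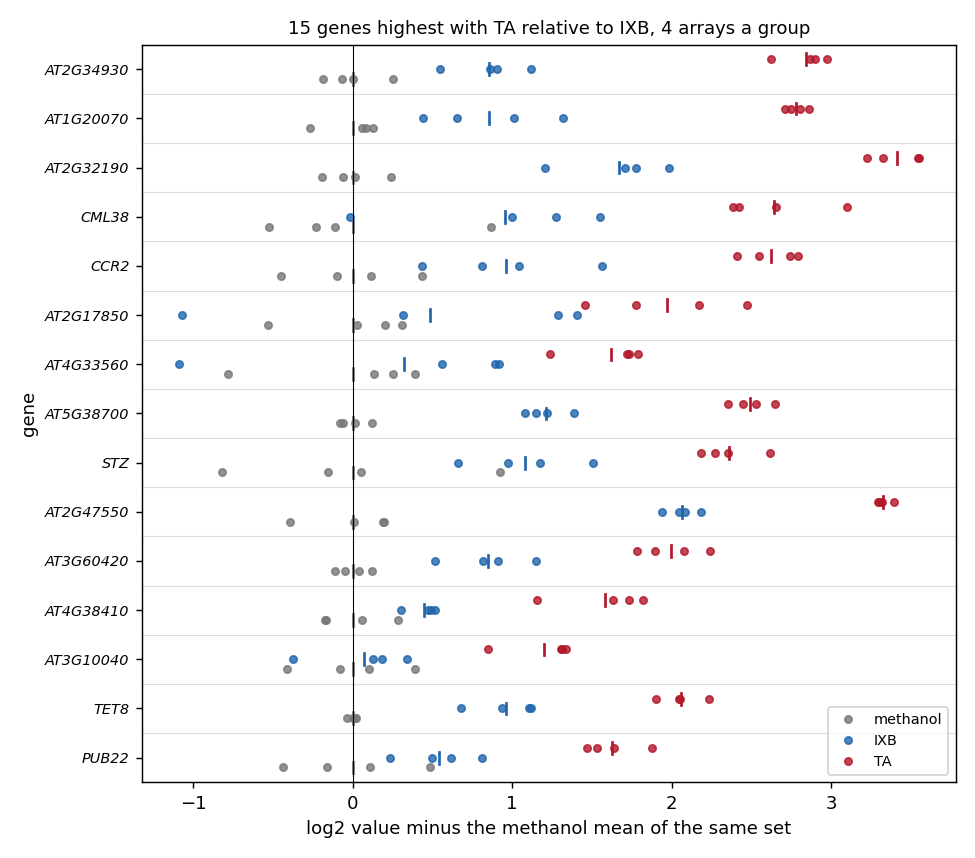
The 15 single-gene probe sets with the largest called differences in favour of TA among those whose TA and IXB arrays do not overlap, ordered from 1.99 log2 (AT2G34930) to 1.09 (PUB22). Points are the log2 values of single arrays minus the methanol mean of their set, and ticks are group means, with TA in red and IXB in blue. The IXB arrays of AT2G17850 and AT4G33560 spread widest, down to -1.07 and -1.09.

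Cell wall enzymes that stood far above methanol with both compounds were higher with TA in several cases. Of 10 measured xyloglucan endotransglucosylase/hydrolases, which cut and rejoin xyloglucan chains, 2 were higher with TA (2.72% of all probe sets), 0 were lower and 8 did not pass. XTH18 was at 3.37, 3.63, 3.47 and 3.49 log2 above methanol with TA and at 2.66, 2.43, 2.55 and 2.24 with IXB. That is 11.3-fold against 5.54-fold, a difference of 1.02 log2 (SE 0.10, adjusted p = 1.47e-05) with no overlap. XTH19 was at 1.61, 1.95, 1.58 and 1.76 with TA and at 1.31, 1.14, 1.40 and 1.16 with IXB (difference 0.47, adjusted p = 0.0307). Its arrays did not overlap either, but the call was lost without TA replicate 2 or 4 or IXB replicate 1, 2 or 4 (adjusted p up to 0.0928). XTH16 (0.04) and XTH33 (0.13) were among those with no call, and the median of the list was 0.04 log2, beside 0.00 over all probe sets. Single arrays moved that median between 0.01 (without IXB replicate 4) and 0.09 (without IXB replicate 3).

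Pectin methylesterases, which remove methyl groups from pectin and so change how it gels, also stood higher with TA in most measured members. Of 5 measured, 3 were higher with TA (2.72% of all probe sets) and 0 lower, and the median difference was 0.45 log2. AT2G47550 stood at 3.395, 3.322, 3.301 and 3.297 with TA and at 2.048, 2.188, 2.087 and 1.942 with IXB. These 8 values formed 2 tight groups 1.11 log2 apart, with a difference of the means of 1.26 (SE 0.11, adjusted p = 6.42e-06). ATPMEPCRB was 5.90-fold above methanol with TA and 3.63-fold with IXB (difference 0.70, SE 0.14, adjusted p = 0.0104), and here TA replicate 3 (2.297) lay just below IXB replicate 3 (2.301), an overlap. For AT3G49220 the difference was 0.45 (adjusted p = 0.0276), and it lost the call without TA replicate 1 or 3 or IXB replicate 2 or 4 (adjusted p up to 0.0877). The other members, ATPMEPCRD (0.18) and PME61 (0.07), did not pass.

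Of 13 measured expansins, wall-loosening proteins, 1 was higher with TA (2.72% of all probe sets) and 0 lower. The median difference of -0.06 changed sign without TA replicate 4 (0.06) and without dim probe sets (0.08), and was -0.02 without IXB replicate 2 and -0.08 without IXB replicate 4. EXLA3, an expansin-like protein, was at 2.13, 2.07, 1.82 and 2.13 with TA and at 1.48, 1.38, 1.38 and 1.39 with IXB (difference 0.63, SE 0.10, adjusted p = 0.00178). The related EXLA2 (0.34) and EXLA1 (0.21) stood more than 1 log2 above methanol with both compounds but their differences did not pass. All 10 members of the alpha-expansin symbol family had a negative difference, between -0.30 and -0.06, with 0 calls. EXPB3, a beta-expansin, was at -0.46 without a call (adjusted p = 0.125). Without IXB replicate 1 the count of higher expansins was 2, and without IXB replicate 3 or methanol replicate 1 the count of lower ones was 1.

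Class III peroxidases cross-link wall polymers with hydrogen peroxide. Of 11 measured, 2 were higher with TA (2.72% of all probe sets) and 0 lower. Their median difference was 0.12, but 0.02 without IXB replicate 1, 0.20 without TA replicate 4 and 0.22 without IXB replicate 3. AT5G39580 was at 2.78, 2.78, 2.62 and 2.61 with TA and at 2.09, 2.07, 2.02 and 1.82 with IXB (difference 0.70, SE 0.10, adjusted p = 7.67e-04), so the groups were 0.51 log2 apart. The difference of AT5G64120 was smaller (0.40, adjusted p = 0.0233) and lost its call without TA replicate 1 or 2 or IXB replicate 1, 2 or 4 (adjusted p up to 0.0711). Among 3 measured phenylpropanoid genes, CCR2, a cinnamoyl-CoA reductase of the lignin branch, was 3.16-fold higher with TA. Its arrays were at 2.74, 2.41, 2.79 and 2.55 with TA and at 1.57, 1.04, 0.81 and 0.43 with IXB (difference 1.66, SE 0.20, adjusted p = 1.55e-04). HCT (0.24) and AT3G13610 (-0.12), the other members, did not pass.

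Genes of cellulose synthesis itself gave no call. Of 3 measured (of 16 written, with no cellulose synthase subunit among those measured), 0 passed. COB, a membrane-anchored protein that cellulose deposition needs, had the largest difference, 0.24 log2 (SE 0.07, adjusted p = 0.0749). Its TA arrays were at 0.40, 0.42, 0.40 and 0.50 and its IXB arrays at 0.32, 0.27, 0.07 and 0.09, so they did not overlap, and the call was made without dim probe sets and with an intensity trend (adjusted p = 0.0431 and 0.0411). Wall sensing, represented by 5 measured genes, also gave 0 calls and a median of -0.09, which was 0.003 without IXB replicate 1. The receptor kinase THE1, which reports wall damage, was at 0.29 ± 0.23 with TA and 0.53 ± 0.20 with IXB (SD, n = 4; adjusted p = 0.273). FER, another wall-linked receptor kinase, was at -0.09.

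Regulators of the early response to elicitors were higher with TA in 4 of 7 measured cases, beside 2.72% of all probe sets, and lower in 0, with a median difference of 0.38 log2. The level of the list as a whole depended on the summary. Its median per array averaged 0.55 log2 above methanol with TA and 0.56 with IXB, while its mean per array averaged 1.00 and 0.48. STZ, a zinc-finger repressor of transcription, was at 2.19, 2.27, 2.62 and 2.36 with TA and at 1.51, 0.97, 1.17 and 0.66 with IXB. The methanol arrays of STZ spread from -0.82 to 0.93, so IXB overlapped methanol while TA did not, and TA exceeded IXB by 1.28 (SE 0.26, adjusted p = 0.0107). PUB22, a ubiquitin ligase that dampens immune signalling, was at 1.47, 1.53, 1.88 and 1.64 with TA and at 0.24, 0.50, 0.62 and 0.81 with IXB (difference 1.09, SE 0.16, adjusted p = 0.00110).

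The close relatives of PUB22 followed with smaller differences. PUB23 was at 1.37 ± 0.14 with TA and 0.85 ± 0.06 with IXB (SD, n = 4), a difference of 0.52 (adjusted p = 0.00287). PUB24 stood near methanol with IXB (-0.03 ± 0.05) and above it with TA (0.35 ± 0.18; difference 0.38, adjusted p = 0.0229), and its call was lost without TA replicate 1 or 4 or IXB replicate 2 or 4 (adjusted p up to 0.0664). The 3 WRKY factors of the list did not pass, with differences of 0.22 (WRKY22), 0.22 (WRKY6) and -0.05 (WRKY53). WRKY53, a regulator of defence and ageing, was close to equal, at 0.49 log2 above methanol with TA and 0.54 with IXB.

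Calcium-binding proteins carry signals that follow a rise of calcium in the cell. Of 12 measured, 4 were higher with TA (2.72% over all probe sets) and 0 lower, with a median difference of 0.30. CML38, a calmodulin-like protein that also answers low oxygen, was at 2.384, 2.425, 2.653 and 3.101 with TA and at -0.019, 1.000, 1.277 and 1.552 with IXB (difference 1.69, SE 0.30, adjusted p = 0.00501). IXB replicate 1 lay at the methanol mean for this gene and the other IXB arrays 1.00 log2 or more above it, and without that array the difference was 1.36 and still called. AT2G46600 was at 1.53 ± 0.06 with TA and 0.89 ± 0.18 with IXB (difference 0.64, adjusted p = 0.00226). AT5G39670 was at 1.51 ± 0.15 and 0.82 ± 0.32 (SD, n = 4; difference 0.69, adjusted p = 0.00541).

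CML37, dim at 2.31 log2 with methanol in the TA set, differed by 0.35 (adjusted p = 0.0385), and its call was lost without TA replicate 2, 3 or 4 or any 1 of the 4 IXB arrays (adjusted p up to 0.0931). AT4G27280, an EF-hand protein that stood 2.76 log2 above methanol with TA and 2.22 with IXB, did not pass (difference 0.54, adjusted p = 0.0698). Of single-gene lists, OPCL1, an enzyme of jasmonate synthesis, was higher with TA (0.61 ± 0.14 against 0.24 ± 0.03, SD, n = 4; adjusted p = 0.0196), a call lost without TA replicate 3 or IXB replicate 2 or 4 (adjusted p up to 0.0569). COR47, a dehydrin, was higher as well (0.82 ± 0.08 against 0.35 ± 0.17, SD, n = 4; adjusted p = 0.00506), while COR15A, the other measured gene of the dehydration list, was at -0.003.

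The low-oxygen list held the largest median difference of the 24 lists. When oxygen runs short, plant cells stabilise a group of ERF transcription factors that switch on a small core of genes for fermentation and for proteins of mostly unknown function. Of 18 measured genes (of 36 written), 8 were higher with TA, 0 lower and 10 did not pass, with a median difference of 0.97 log2. The background for higher calls is 2.72%, and the list was written with earlier results of these arrays known, so its direction is not independent evidence. The median over the list was at 1.51, 1.02, 1.65 and 1.26 log2 above methanol on the TA arrays, at -0.20, 0.48, 0.85 and 0.75 on the IXB arrays and at 0.00, -0.43, 0.11 and 0.27 on the methanol arrays. Every TA array thus lay above every IXB array, and IXB replicate 1 and methanol replicate 2 were the lowest of their groups.

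**Figure D3:**
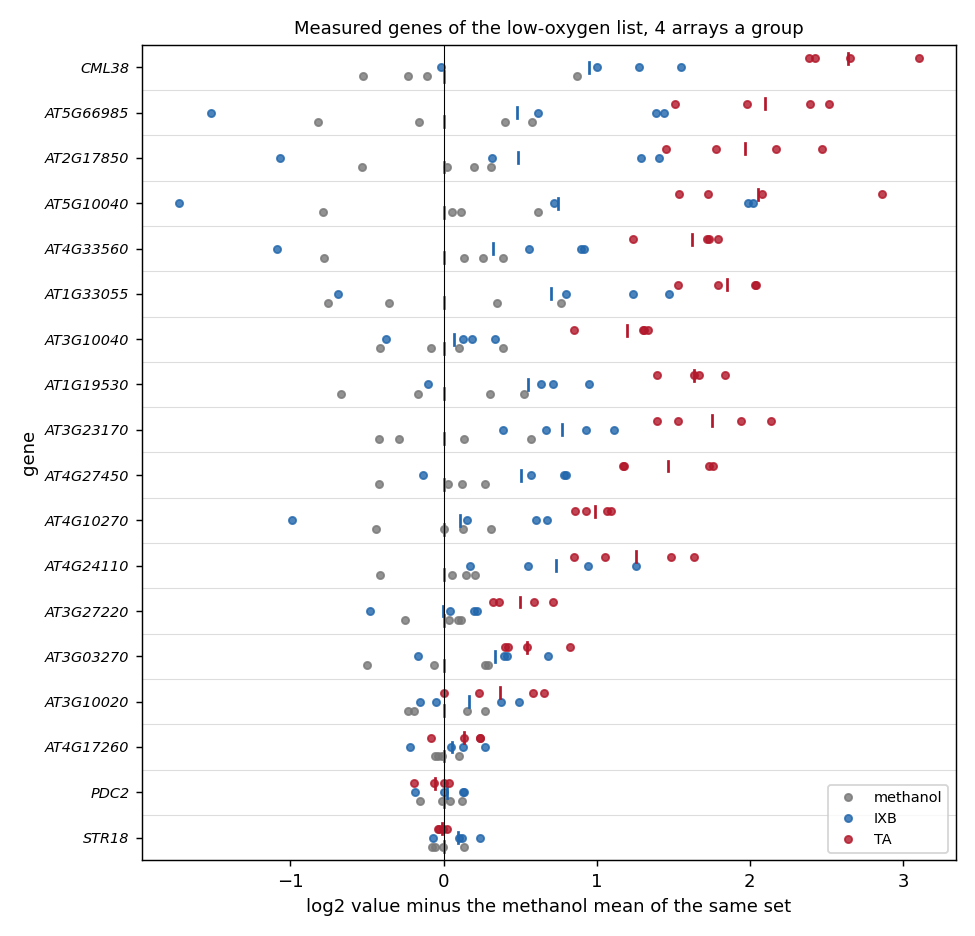
The 18 measured genes of the low-oxygen list, ordered by their TA minus IXB difference from 1.69 log2 (CML38) to -0.11 (STR18). Points are single arrays as log2 values minus the methanol mean of their set and ticks are group means. The leftmost IXB point of most upper genes is replicate 1, at -1.73 for AT5G10040.

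AT3G10040, also known as HRA1, a trihelix protein that restrains the low-oxygen factors, was the clearest case. It was at 1.30, 0.85, 1.31 and 1.34 with TA and at -0.38, 0.18, 0.13 and 0.34 with IXB (difference 1.13, SE 0.17, adjusted p = 0.00104). With IXB this gene lay within the range of the methanol arrays (-0.42 to 0.39), and with TA above it. AT2G17850, a rhodanese-like protein, was at 2.47, 1.45, 2.17 and 1.78 with TA and at -1.07, 0.32, 1.41 and 1.29 with IXB (difference 1.48, SE 0.40, adjusted p = 0.0414). The gap between its groups was 0.05 log2.

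AT4G33560 was at 1.79, 1.24, 1.74 and 1.72 with TA and at -1.09, 0.56, 0.90 and 0.92 with IXB (difference 1.30, adjusted p = 0.0413). Both AT2G17850 and AT4G33560 rested on single arrays. Without IXB replicate 1 their differences were 0.97 and 0.83, and the calls were lost (adjusted p = 0.0633 and 0.0521). They were also lost without TA replicate 1, 3 or 4, IXB replicate 2 or methanol replicate 1, and that of AT4G33560 without TA replicate 2 (adjusted p up to 0.116 and 0.101). A robust prior gave adjusted p = 0.138 and 0.132.

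The other called members were AT1G19530 (1.09), AT3G23170 (0.98), AT4G27450 (0.96) and AT3G27220 (0.50). Some genes with differences as large, and IXB arrays that spread widely, did not pass, such as AT5G66985 (1.62, IXB SD 1.38, adjusted p = 0.0684) and AT5G10040 (1.30, IXB SD 1.76, adjusted p = 0.238). The fermentation gene PDC2, a pyruvate decarboxylase, was near 0 at -0.07, and so was AT4G17260, a lactate dehydrogenase, at 0.07. Of 5 measured glycolysis genes 0 passed, the median was 0.03, and the largest difference was that of the pyruvate kinase AT5G08570 (0.14, adjusted p = 0.530). The count of called low-oxygen genes was 5 without TA replicate 1, 3 or 4, IXB replicate 1 or 2 or methanol replicate 1, and without IXB replicate 1 the median difference was 0.60. It was also 5 with the 16 columns normalized together, with the IXB set brought to the scale of the TA set, and with the 8 treated arrays alone. The part of the flasks' oxygen supply in any of these differences was not tested.

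Differences in favour of IXB were smaller. The genes with the largest were again picked among those whose TA and IXB arrays do not overlap. AT2G29500, a small heat shock protein that holds unfolded proteins, stood at 0.07, 0.34, 0.48 and 0.73 with TA and at 1.77, 1.09, 1.63 and 0.92 with IXB. The IXB arrays all lay above the TA arrays, by at least 0.19 log2, and the difference of -0.95 (SE 0.17, adjusted p = 0.00550) made the transcript 1.93-fold higher with IXB. Of the 5 heat shock genes measured it alone was called (2.05% of all probe sets were lower), and their median difference was -0.17. Without TA replicate 4 there were 2 lower calls, and without dim probe sets, which left 2 genes, the median was -0.56. AT1G53540, another small heat shock protein, was at -0.59 without a call (adjusted p = 0.0839), and AT5G37670, of the same class, at 0.36.

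AT5G15950 encodes an S-adenosylmethionine decarboxylase, an enzyme of polyamine synthesis. It was at -0.29, -0.12, -0.34 and 0.09 with TA and at 0.59, 0.65, 0.43 and 0.72 with IXB (difference -0.76, SE 0.10, adjusted p = 2.27e-04). The methanol arrays ran from -0.12 to 0.11, with all IXB arrays above them and TA replicates 1 and 3 clearly below. AT2G07360, which encodes an SH3-domain protein of the TPLATE complex of endocytosis, showed the other form. It was at -0.60, -0.49, -0.62 and -0.84 with TA and at 0.19, 0.15, 0.06 and 0.09 with IXB (difference -0.76, SE 0.09, adjusted p = 1.37e-04). Here the IXB arrays lay within the methanol range (-0.13 to 0.23) and the TA arrays below it.

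**Figure D4:**
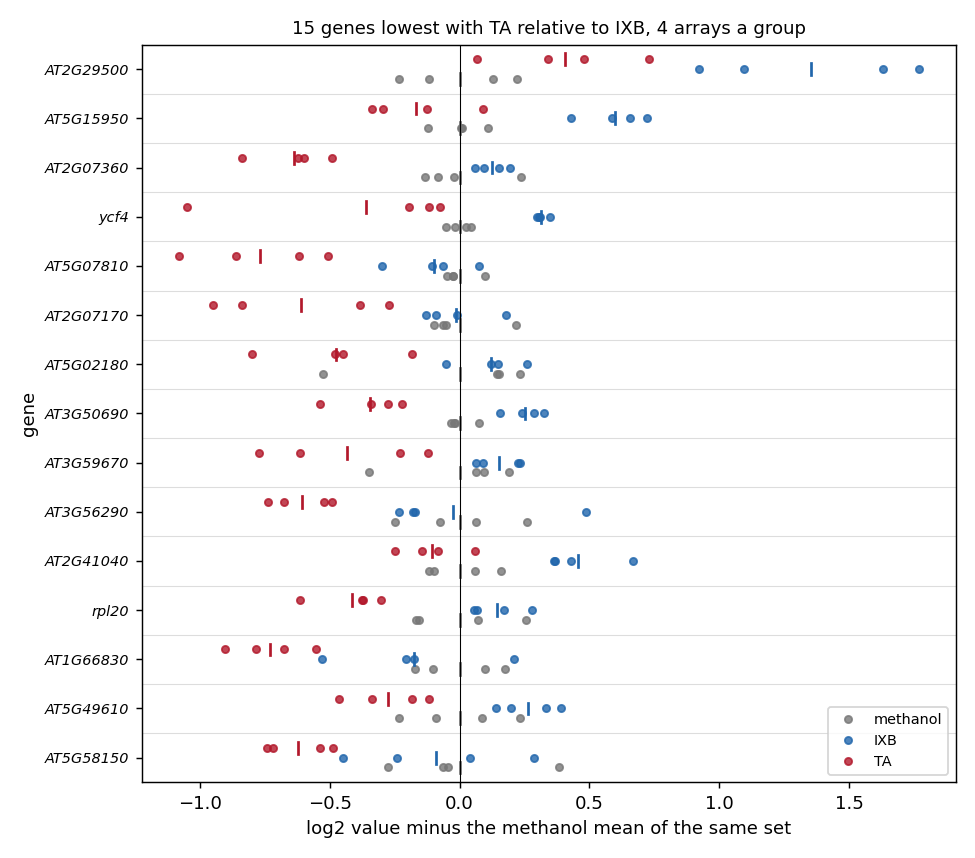
The 15 single-gene probe sets with the largest called differences in favour of IXB among those whose TA and IXB arrays do not overlap, from -0.95 log2 (AT2G29500) to -0.53 (AT5G58150). Points are single arrays as log2 values minus the methanol mean of their set and ticks are group means. TA is in red and IXB in blue, and TA replicate 4 of ycf4 lies at -1.05.

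Among the rest of the 15, the mean with TA was below methanol in all 12, between -0.77 and -0.10, and the mean with IXB ran from -0.18 to 0.46. AT5G07810, a helicase of the SNF2 class, was at -0.51, -0.86, -1.08 and -0.62 with TA and at -0.30, -0.07, -0.10 and 0.07 with IXB (difference -0.67, SE 0.11, adjusted p = 0.00259). AT3G50690, a leucine-rich repeat protein, was at -0.34 ± 0.14 with TA and 0.25 ± 0.07 with IXB (SD, n = 4; adjusted p = 3.06e-04). AT2G41040, a methyltransferase-like protein, was at -0.10 ± 0.13 and 0.46 ± 0.14 (SD, n = 4; adjusted p = 0.00252), and the F-box protein AT5G49610 at -0.28 ± 0.16 and 0.26 ± 0.12 (SD, n = 4; adjusted p = 0.00762). These 4 genes kept their calls whichever array was left out.

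Another 6 of the 12 were less firm. AT5G58150, a leucine-rich repeat receptor kinase at -0.53 (adjusted p = 0.0494), lost the call without any 1 of 9 arrays, all but IXB replicate 3 and methanol replicates 2 and 4 (adjusted p up to 0.140). AT5G02180, an amino acid transporter (-0.60, adjusted p = 0.0323), lost it without TA replicate 1, 2 or 3 or any 1 IXB array (up to 0.0943). AT1G66830, a receptor kinase (-0.55, adjusted p = 0.0234), was not called when TA replicate 2 or 3, or IXB replicate 1, 2 or 4, was left out (up to 0.0674). AT3G59670 (-0.59, adjusted p = 0.0223) was not called without either of TA replicates 1 and 3, nor without either of IXB replicates 2 and 4 (up to 0.0688), and AT2G07170 (-0.60, adjusted p = 0.0184) without TA replicate 1 or 3 or IXB replicate 4 (up to 0.0634). AT3G56290 (-0.58, adjusted p = 0.0281) did so without TA replicate 1, 2 or 4, or without IXB replicate 1 (up to 0.0672).

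Both ycf4 and rpl20 among the 15 lie on the plastid genome, so all 69 measured plastid genes were looked at, a choice made after seeing the values. Of these, 8 (11.6%) were lower with TA and 0 higher, and the median difference was -0.14 log2, beside 2.05% lower and 0.00 over all probe sets. The called genes encode parts of the plastid RNA polymerase (rpoB and rpoC1), of the photosystems (psbB and psaB), of the ATP synthase (atpF and atpH), of the ribosome (rpl20) and an assembly factor of photosystem I (ycf4). For rpl20 the values were -0.61, -0.30, -0.37 and -0.37 with TA and 0.17, 0.07, 0.06 and 0.28 with IXB (difference -0.56, SE 0.10, adjusted p = 0.00501). In ycf4 the IXB arrays lay between 0.30 and 0.35, while TA replicate 4 at -1.05 was far from the other TA arrays (-0.20, -0.12 and -0.08). Without that array the difference of ycf4 was -0.44, and its call was lost without IXB replicate 2 or 4 (adjusted p up to 0.0554). The count of 8 was 5 without TA replicate 3, 4 without IXB replicate 1, 2 without IXB replicate 2 and 1 without IXB replicate 4, and it was 4 with the 8 treated arrays alone. TA replicate 4 also lay far below the other TA arrays in psaA (-1.54) and psbD (-1.09), which were not called, and without it the median difference over the 69 genes was -0.09. The median over the 69 genes was at -0.15, -0.08, -0.15 and -0.19 on the TA arrays and at -0.01, 0.04, -0.09 and -0.02 on the IXB arrays, inside the methanol range of -0.14 to 0.11 except for TA replicates 1, 3 and 4.

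Of 35 mitosis genes written, 6 could be matched to a named probe set. Of these, 2 were lower with TA (2.05% of all probe sets), 0 higher and 4 did not pass, with a median difference of -0.22. AUR2, an Aurora kinase that acts in chromosome segregation and cell division, was at -0.62, -0.49, -0.48 and -0.55 with TA and at -0.36, -0.16, -0.02 and -0.16 with IXB (difference -0.36, SE 0.08, adjusted p = 0.0132). Of its 8 treated arrays 7 lay below every methanol array, and IXB replicate 3 lay within the methanol range. For 3xHMG-box2, a chromatin protein of mitotic cells, the difference was -0.38 (adjusted p = 0.0327), lost without TA replicate 1, 2 or 3, IXB replicate 2 or 4 or methanol replicate 2 (adjusted p up to 0.101). TOPII, a topoisomerase (-0.21), KINESIN-12B (-0.23), AUR1 (-0.13) and AUR3 (0.01) did not pass. PRL, a subunit of the DNA replication helicase and the 1 measured gene of S phase, was at -0.32 (adjusted p = 0.0998), and -0.41 with a call without IXB replicate 1 (adjusted p = 0.0422).

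**Figure D5:**
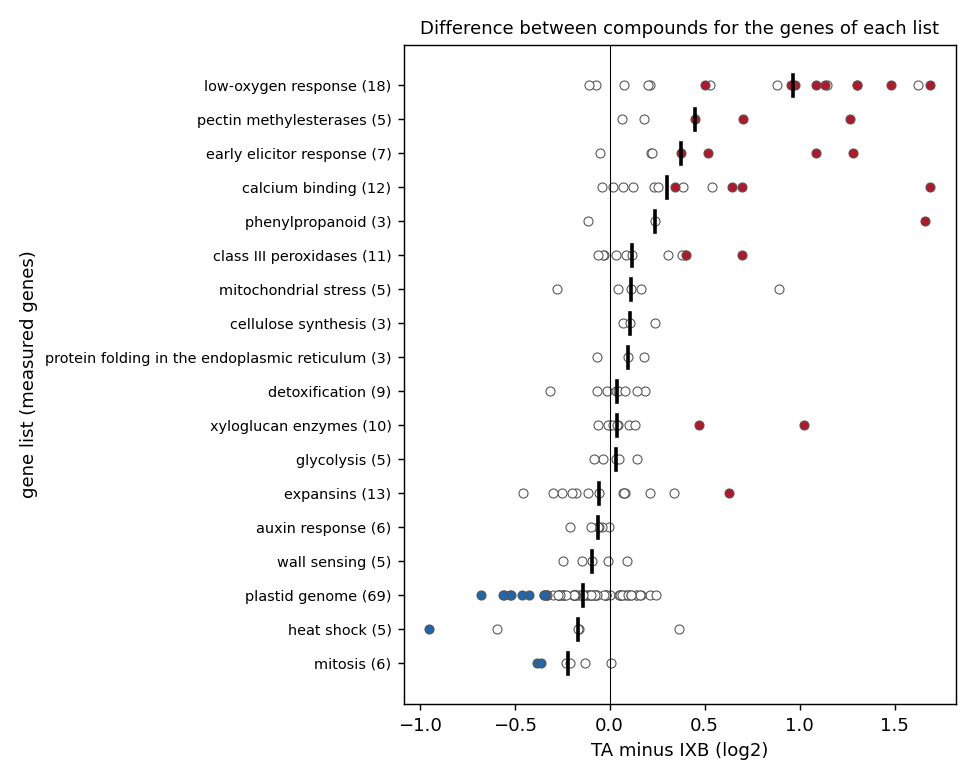
TA minus IXB differences in log2 for the measured genes of each list with at least 3 of them, counts in brackets, ordered by the median (black tick). Filled points passed an adjusted p of 0.05, and open points did not. The low-oxygen median of 0.97 log2 lies highest and the mitosis median of -0.22 lowest.

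Of the remaining lists, the fit of all 12 arrays called 0 genes in either direction. These were auxin response (6 measured, median -0.06), detoxification (9, 0.04), mitochondrial stress (5, 0.11), protein folding in the endoplasmic reticulum (3, 0.09), and ethylene, salicylic acid, tryptophan and sugar starvation with 1 gene each. WES1, an auxin-conjugating enzyme (-0.21), GSTU16, a glutathione transferase (-0.31), BZIP60, a factor of the unfolded protein response (0.18), EIN3 of ethylene signalling (-0.10), SAG101 of defence (0.38), AT2G04400 of tryptophan synthesis (-0.02) and MCCA of leucine breakdown (0.07) were the members farthest from 0. AT5G51440, a mitochondrial heat shock protein, had a difference of 0.89 but TA arrays at 0.01, 0.18, 1.60 and 2.63, so it did not pass (adjusted p = 0.349). GSTU16 was called without TA replicate 4 (adjusted p = 0.0229) and WES1 without IXB replicate 3 (adjusted p = 0.0367), and 1 mitochondrial stress gene was lower without TA replicate 4 and 1 higher with a replicate block. Of these 4 multi-gene lists, the medians of mitochondrial stress (0.04 to 0.21), auxin response (-0.09 to 0.002) and detoxification (-0.01 to 0.09) moved by over 1.5 times with single arrays left out. An adjusted p that misses the threshold does not show that the compounds acted alike on these genes.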

How the data were processed

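RNA of 12 samples was hybridised to ATH1 arrays. What was deposited are log2 values, and the submitters' processing notes name RMA as the authors' method; its version and settings are not given in the sources used here. RMA gives the arrays of a run 1 common distribution, which hides any change that all transcripts of a group share. TA columns exist in the TA set and IXB columns in the IXB set, so each column was expressed as its difference from the mean of the 4 methanol columns of its set. Both versions of a methanol array, which per the labels come from the same scans, were averaged and counted once. The 3 groups were fitted together by lmFit and eBayes of limma 3.58.1 under R 4.3.3, with two-sided tests and Benjamini-Hochberg adjustment over 22746 probe sets after 64 Affymetrix controls were left out. Calls were made at 0.05. Distances from methanol are given as means and SDs, with no call of their own. Of the probe sets, 13513 belong to exactly 1 gene in the annotation, 503 to several, and 8730 are unnamed here. Names come from RefSeq (TAIR10.1) and no coordinates are given, since no build is named for the array. The text names the 15 largest called differences in each direction among single-gene probe sets whose TA and IXB arrays do not overlap, then up to 4 called members of each list, or the 1 with the largest difference, and members that did not pass where a count calls for them. A list gene stands by its brightest single-gene probe set. The members, the 24 gene lists and the 4 marker lists were chosen with earlier results of these data known. Promoter sequences were not used here. The fit was tested on simulated data in which both sets shared 1 scale, so that test does not bear on the difference in scale between the real sets. Figures came from matplotlib 3.10.9 and numpy 2.4.6 under Python 3.11.15. Alternatives covered a replicate block, the arrays in the fit, normalization across the sets, array centring, dim and shared probe sets, the variance model, the threshold and leaving out each array.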

Additional observations from a re-analysis of the deposited data

Results flagged for a closer look

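In 146 groups of 4 arrays (the TA and IXB values of named genes and of the medians of lists with at least 5 measured genes), 7 held a single array far from the other 3. Chance marks about 1 in 20 such groups, and which of these is chance was not tested. AT4G33560 was at 1.24 in TA replicate 2 and at 1.72 to 1.79 in the other TA arrays, and AT3G10040, of the same low-oxygen list, at 0.85 in that array and at 1.30 to 1.34 in the others. In TA replicate 4 the plastid gene ycf4 was at -1.05, against -0.20 to -0.08. CML37 was at 0.39 in TA replicate 1, against 0.57 to 0.61. AT3G56290 was at 0.49 in IXB replicate 1, against -0.23 to -0.17, and EXLA3 at 1.48 in the same array, against 1.38 to 1.39. AT5G39670 was at 1.29 in IXB replicate 3, against 0.63 to 0.70.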

How the results depend on the processing

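Of the 1085 calls, 0 changed sign under any of the 24 alternatives in which they were tested. Several alternatives, such as the stricter threshold or another variance model, leave the difference itself as it is, so a change of sign was hardly possible. The share of calls kept was 61.4% with the 8 treated arrays alone, 43.5% without IXB replicate 4 and 26.5% at an adjusted p under 0.01. The counts of higher and lower probe sets were 440 and 257 with the 8 treated arrays alone, 339 and 260 among 13513 single-gene probe sets, where fewer are tested, and 220 and 67 at an adjusted p under 0.01. Leaving out 1 array at a time gave 329 to 677 higher and 150 to 535 lower. The counts of the remaining alternatives stayed within 1.5 times, including the IXB set brought to the scale of the TA set (625 and 464, with 95.3% of the calls kept) and array weights (741 and 697). Without dim probe sets they were 568 and 525, but of only 11427 tested. There 52.0% of the calls were higher with TA, beside 57.0% in the main fit. With all columns normalized together the counts were 598 and 512. Same-numbered TA and IXB arrays deviated from their group means with correlations of 0.001, -0.02, 0.11 and 0.06, and 1 of the 4 TA arrays correlated best with its own number. Methanol arrays, which share the fit, deviated with same-numbered IXB arrays at 0.16, 0.11, 0.14 and 0.15 and with TA arrays at 0.03, -0.06, 0.30 and 0.08. These values do not settle whether the numbers pair samples. With the replicate number as a block, a replicate block, the counts were 687 and 566, with 11 higher low-oxygen genes. Of the 46 named genes with a call, 27 kept it under every alternative in which they were tested and 30 whichever array was left out. Dim genes, such as AT2G34930, CCR2 and PUB22, were not tested in the fit without dim probe sets. Without dim probe sets the medians of the calcium (0.64, 3 genes left), peroxidase (0.34, 6) and xyloglucan (0.25, 4) lists were higher. Their dim members drop out. Genes called higher with TA were then 2 in the calcium list, 1 of 2 in the early elicitor list and 0 of 1 in the phenylpropanoid list. The background of that fit was 568 higher of 11427 probe sets, a larger share than the 618 of 22746 in the main fit. In the main fit these counts were 4, 4 and 1. With a scale that differs between the sets, differences of dim transcripts are less certain than those of bright ones.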

Other observations

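Genes grouped by the letters of their symbols, 29 families with at least 8 measured members and formed after seeing the data, showed a few more differences between the compounds. Calls in this section are those of the main fit, and how they depend on single arrays is not given here. Of 10 VPS genes, which sort membrane proteins into endosomes, 4 were higher with TA and 0 lower (limma, background 2.72% and 2.05%). All 4, VPS60.1 (0.50, adjusted p = 0.0124), VPS20.1 (0.34, adjusted p = 0.0187), VPS2.1 (0.33, adjusted p = 0.0276) and VPS46.2 (0.32, adjusted p = 0.0231), belong to or are related to the ESCRT-III machinery that pinches off vesicles inside endosomes. Their distances from methanol were 0.68, 0.14, 0.77 and 0.37 log2 with TA and 0.19, -0.20, 0.44 and 0.05 with IXB. Of 15 tetraspanins 2 were higher with TA, TET8 and TET9 (0.73, adjusted p = 1.58e-04), the latter at 2.15 log2 above methanol with TA and 1.41 with IXB. Among 11 PRA genes, which act in membrane traffic, PRA1.G2 (0.37) and PRA1.B4 (0.35) were higher. Of 9 plant U-box ligases PUB43 (0.44, adjusted p = 0.00531) was higher besides PUB22, PUB23 and PUB24.

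Of 47 UGT genes, which attach sugars to small molecules, 3 (6.38%) were lower with TA, beside 2.05% of all probe sets. A higher call was made for 0, and the median difference was -0.08. The lower genes were UGT71B1 (-0.52, adjusted p = 0.00296), UGT76C2 (-0.31) and UGT76C1 (-0.28), of which the UGT76C enzymes are known to glucosylate cytokinins. With TA these stood at -0.29, -0.28 and -0.17 against methanol and with IXB at 0.23, 0.03 and 0.11.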
